A study of Arabidopsis thaliana with 18 samples.

Results

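Root transcripts of the T101A line were compared with those of the chl1-9 line, both of which carry a changed form of NRT1.1, the root nitrate transporter and nitrate receptor also called CHL1 or NPF6.3. The comparison rests on the 6 arrays whose titles name these lines, 3 for T101A and 3 for chl1-9, out of 18 arrays in the series. The other arrays, 3 per genotype, are from chl1-5, chl1-12, T101D and col, the Columbia wild type, and they are used here to place the levels of the compared lines. Every group was grown in the same way, in vitro on 10 mM NH4NO3 for 8 days with no further treatment named in the labels, and total RNA of whole roots was hybridised to Affymetrix arrays. A level is the deposited intensity of a probe set, a linear value that the authors scaled to a common mean on each array, and log2 differences are T101A minus chl1-9 on the scale log2(intensity + 16).

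NRT1.1 takes up nitrate and also reports external nitrate to the root, where it acts on the primary nitrate response and on lateral root growth. Phosphorylation of the threonine named in T101A shifts the transporter between its high-affinity and low-affinity modes. In T101A this residue is replaced by alanine, which cannot be phosphorylated, whereas chl1-9 is known as a point mutant that takes up little nitrate and yet retains a primary nitrate response. The labels give only these genotype names. They state neither the plant background and promoter that carry the T101A form nor the lesion of chl1-9, and they do not say whether the 3 arrays of a line came from separate cultures. The p-values below therefore measure only the spread between these arrays, which may be technical. The annotation used here assigned NRT1.1 to none of the probe sets, so its transcript could not serve as a check of the labels.

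The 6 arrays had median intensities of 187 to 193. Correlations of log2 levels across probe sets, which are not independent replicates, were 0.985 to 0.986 among T101A arrays, 0.978 to 0.984 among chl1-9 arrays and 0.977 to 0.984 between the lines. The GAPDH control, read as its 5' signal over its 3' signal, is a sign of RNA integrity and was 0.944, 0.898 and 0.845 in T101A and 0.759, 0.828 and 0.729 in chl1-9, with no overlap and an exact two-sided permutation p of 0.1, the smallest that 3 against 3 arrays allow. The same ratio for actin was 0.357 ± 0.014 in T101A and 0.346 ± 0.041 in chl1-9 (SD, n = 3 each; exact p = 0.9). One array stood apart: the 69 measured genes of the plastid genome summed to 58583, 61710 and 53734 in T101A, and to 64216, 71965 and 19404 in chl1-9, with replicate 3 the low one. The part of RNA integrity or of that array in the results below was not tested. Values without chl1-9 replicate 3 are given beside the counts, the list medians and many of the named genes. As a check of the root label, the 9 measured genes of root hairs, the tubular outgrowths of the root epidermis, had a summed level of 10595 to 11900 in T101A and 7725 to 10143 in chl1-9. The single measured green shoot gene, RCA, the activase of Rubisco, was at 991 to 1324 in T101A and 985 to 1643 in chl1-9, above the array medians. A sum over 9 genes and the level of 1 gene are not comparable, so this check does not separate root from green tissue.

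The lines differed in a small set of genes, and most of that set, as called over all 18 arrays, was higher in T101A. By limma, with Benjamini-Hochberg adjustment over all 22746 probe sets and a threshold of 0.05, 139 probe sets differed, 0.611% of those tested. Of these, 98 were higher in T101A (0.431%) and 41 were lower (0.180%), 19 and 10 of them by 2-fold or more on the log2(intensity + 16) scale, which understates the change of dim probe sets. At an unadjusted p under 0.05 there were 3249. The median log2 difference over all probe sets was -0.02. All 139 had the 3 arrays of one line above the 3 of the other, which held for 16.7% of all probe sets. The rule for naming genes also required this, so lack of overlap in a called gene is no added support. Only 73 of the 139 have a single annotated gene, 51 higher and 22 lower, so 66 changes are not named here. In whole roots, fewer cells of a type and less RNA per cell cannot be told apart.

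The size of this set depended on single arrays. Without chl1-9 replicate 3, 75 probe sets passed (52 higher, 23 lower), 54 of them among the 139. Without chl1-9 replicate 2 the count was 86, and without chl1-9 replicate 1 it was 138. Leaving out T101A replicate 1, 2 or 3 gave 47, 63 and 37. A fit on the 6 arrays alone called 12, 6 higher and 6 lower, since it estimates the spread from fewer arrays.

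**Figure D1:**
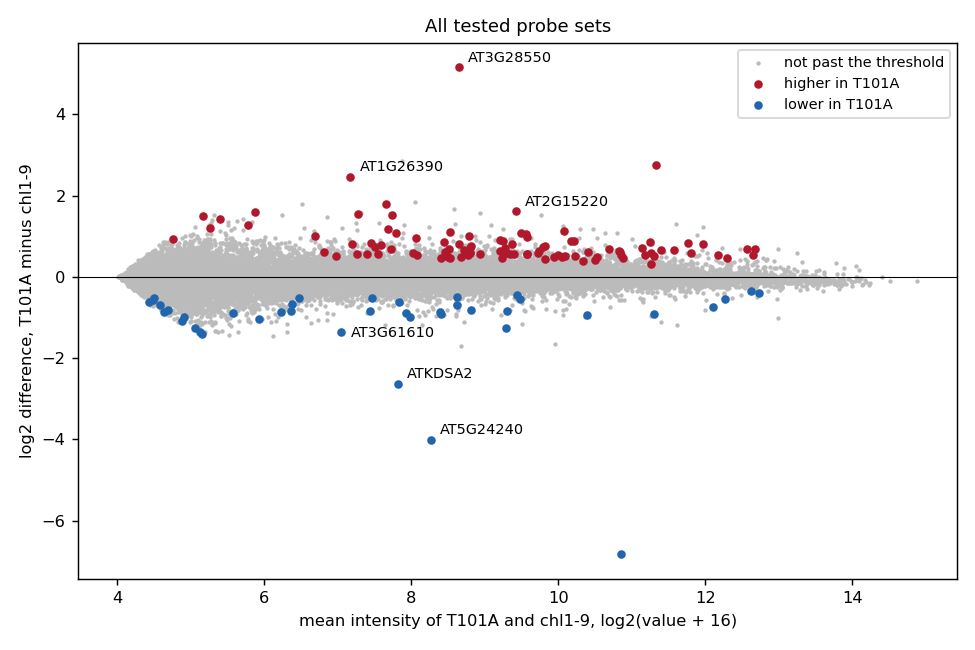
Log2 difference, T101A minus chl1-9, of every tested probe set (vertical axis) against its mean level in the 2 lines, log2(intensity + 16) (horizontal axis). Red points are the 98 called higher in T101A and blue points the 41 called lower; labelled genes are the 3 largest rises and the 3 largest falls with a single annotated gene, and the unlabelled blue point near the bottom has no annotated gene.

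The 2 lines were also placed among the other genotypes. All 139 calls already separate the lines, so shares above those of all probe sets are in part built in. A line that shares its level with another genotype cannot lie beyond all other arrays. The placement therefore describes the levels and does not decide which line departed. In 85 of the 139 probe sets the 3 chl1-9 arrays lay beyond all 15 other arrays, below them in 68 and above them in 17, against 1.91% of all probe sets. The 3 T101A arrays lay beyond the other 15 in 11 of the 139, above in 7 and below in 4, against 0.444% of all. In the remaining 43 neither line stood outside the rest. With chl1-9 replicate 3 left out, an alternative chosen after seeing the data, the 2 other chl1-9 arrays lay beyond the 15 arrays of the other genotypes in 89 of the same 139, below in 70 and above in 19, against 4.22% of all probe sets. The T101A arrays then lay beyond the 14 others in 11, against 0.497% of all. Against col, each line on its own had more calls than the lines had against each other: 508 probe sets for T101A (2.23%) and 772 for chl1-9 (3.39%), in comparisons that share the col arrays.

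The largest named rise was that of a gene with almost no signal in chl1-9. AT3G28550 encodes a proline-rich extensin-like protein, a family of structural glycoproteins of the plant cell wall. Its intensity was 837, 753 and 707 in T101A and 14.6, 1.91 and 2.87 in chl1-9. All chl1-9 arrays thus lay near the bottom of the scale, while T101A was at the level of the other genotypes, whose means were 767 in chl1-5, 785 in chl1-12, 654 in T101D and 735 in col. The log2 difference was 5.16 ± 0.18 (SE), or 35.8-fold on the log2(intensity + 16) scale, with a limma adjusted p of 3.09e-10. It was 5.06 without chl1-9 replicate 3. Against col, the difference was 0.07 for T101A (adjusted p = 0.901) and -5.09 for chl1-9 (adjusted p = 3.78e-10).

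The mirror case was AT5G24240, a gene of the phosphatidylinositol 4-kinase family, enzymes that act in lipid signalling. Its intensity was 11.4, 13.1 and 41.4 in T101A and 486, 553 and 651 in chl1-9. Only chl1-9 had a clear signal: the means of the other genotypes were 31.8 in chl1-5, 22.2 in chl1-12, 44.5 in T101D and 16.9 in col. The log2 difference was -4.01 ± 0.30 (16.1-fold lower in T101A; adjusted p = 6.65e-06), and -3.90 without chl1-9 replicate 3. A probe set with no annotated gene had the same order of genotypes as AT3G28550, with chl1-9 alone low. It stood at 4494, 4358 and 4549 in T101A and 668, 718 and 576 in chl1-9, a log2 difference of 2.75 ± 0.09 (adjusted p = 2.87e-10) that was 2.66 without chl1-9 replicate 3, while the means of the other genotypes lay between 4364 and 4669.7. A second unnamed probe set was at 289.6, 271 and 327 in T101A and 55.9, 78.5 and 87.9 in chl1-9, with a difference of 1.80 ± 0.14 (adjusted p = 6.65e-06), and 1.92 without that array. In both, chl1-9 was below all 15 other arrays.

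**Figure D2:**
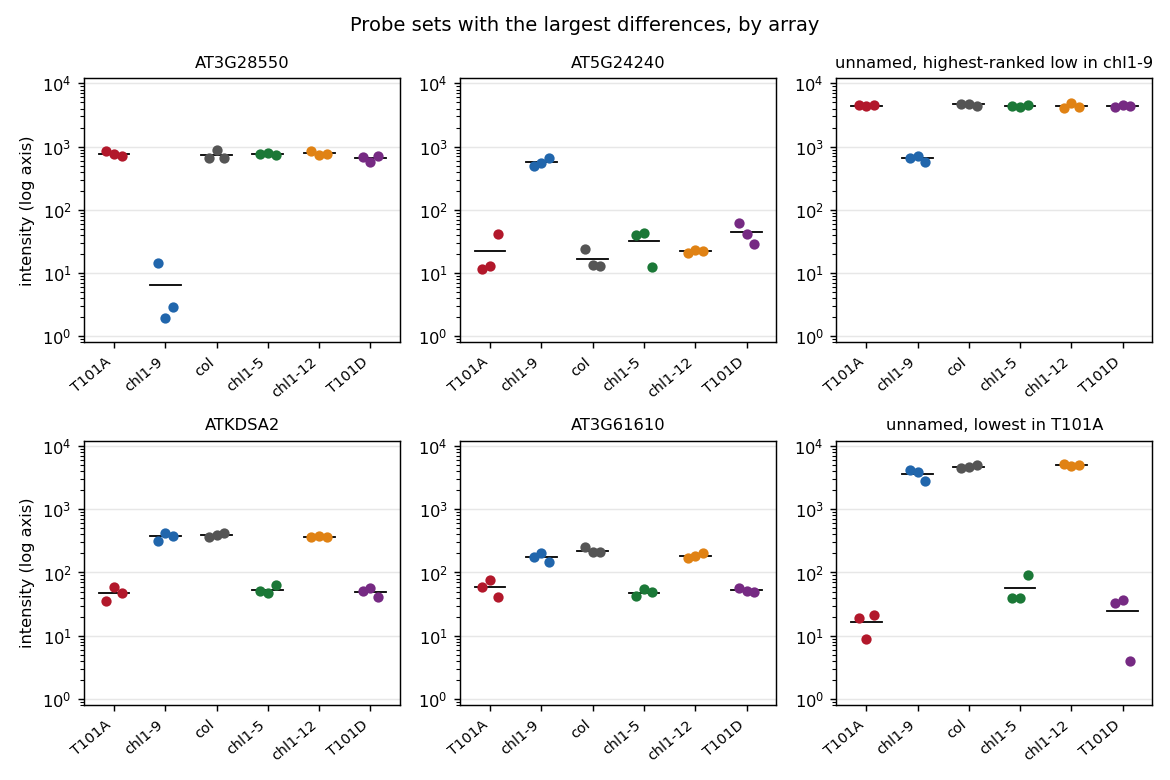
Intensity (log axis) of 6 probe sets on each of the 18 arrays; points are arrays, short lines are means of 3, and colours are genotypes. AT3G28550 and an unnamed probe set are low only in chl1-9, AT5G24240 is high only in chl1-9, and ATKDSA2, AT3G61610 and another unnamed probe set are low in T101A, chl1-5 and T101D and high in chl1-9, col and chl1-12.

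A different pattern held for the next falls, in which T101A sided with chl1-5 and T101D, and chl1-9 with col and chl1-12. ATKDSA2 encodes a synthase of Kdo 8-phosphate, a precursor of a rare sugar of the wall pectin rhamnogalacturonan II. It was at 35.5, 58.3 and 48.0 in T101A and 319.5, 424 and 376 in chl1-9. The log2 difference was -2.63 ± 0.14 (6.18-fold lower; adjusted p = 6.26e-08), and -2.62 without chl1-9 replicate 3. Its means were 53.5 ± 7.77 in chl1-5 and 49.5 ± 7.75 in T101D, but 366 ± 10.2 in chl1-12 and 392 ± 25.7 in col (SD, n = 3 each). AT3G61610, of the galactose mutarotase-like family, had 58.3, 77.2 and 41.1 in T101A and 173, 201 and 147 in chl1-9. Its difference was -1.36 ± 0.15 (adjusted p = 8.09e-04; -1.47 and 0.00141 without that array), and its means were 48.2 in chl1-5 and 52.1 in T101D against 184 in chl1-12 and 222 in col. The largest difference of all belonged to an unnamed probe set with the same order of genotypes. It was at 19.2, 8.95 and 20.9 in T101A and 4249.7, 3914 and 2818 in chl1-9, a log2 difference of -6.83 ± 0.32 (adjusted p = 1.69e-08). The chl1-5 mean was 56.2 and the T101D mean 24.5, against 5040.5 in chl1-12 and 4703 in col.

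One dim locus followed yet another order. AT1G43590, which RefSeq lists as a pseudogene, was at 2.26, 3.79 and 4.68 in T101A and 28.8, 32.6 and 41.1 in chl1-9, a log2 difference of -1.35 ± 0.15 (adjusted p = 6.75e-04; 0.00581 without chl1-9 replicate 3). Only col was as low as T101A, at a mean of 2.32, whereas chl1-5 averaged 23.3, T101D 42.0 and chl1-12 89.2.

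The third largest named rise was that of AT2G15220, one of the plant basic secretory proteins, which are secreted and often linked to defence. Its probe set is of the s_at type, which can match more than 1 transcript. It stood at 1015, 1158 and 855 in T101A and 237, 277 and 475 in chl1-9, the highest chl1-9 value being that of replicate 3. The log2 difference was 1.62 ± 0.24 (adjusted p = 0.00602; 0.00125 without that array). Both lines were below col, whose mean was 2789.6, with log2 differences from it of -1.43 for T101A (adjusted p = 0.00451) and -3.05 for chl1-9 (adjusted p = 4.42e-06). The T101A mean of 1009 was near those of chl1-5 (763) and chl1-12 (828), while T101D averaged 2358. XTH33, an enzyme that cuts and rejoins the wall polymer xyloglucan, was at 145, 102 and 122 in T101A and 43.5, 57.9 and 55.8 in chl1-9, below every other array of the series. Its difference was 1.02 ± 0.16 (adjusted p = 0.0130), and col averaged 116. AT1G62760, a pectin methylesterase inhibitor-like protein, was dim, with 39.6, 44.0 and 29.3 in T101A and 10.2, 7.81 and 3.50 in chl1-9. Its difference of 1.21 had an adjusted p of 0.0467, which became 0.144 without chl1-9 replicate 3. AT2G03370, a glycosyltransferase of family 61, differed by 1.18 (adjusted p = 0.0319; 0.0771 without that array).

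SUFE2, an activator of the desulfurase that supplies sulfur for iron-sulfur clusters, was at 1397, 1339.7 and 1649.7 in T101A and 599, 752 and 630.0 in chl1-9. The log2 difference was 1.13 ± 0.16 (adjusted p = 0.00602; 0.0264 without chl1-9 replicate 3). Its col mean was 816, from which T101A differed by 0.85 (adjusted p = 0.0116) and chl1-9 by -0.28 (adjusted p = 0.428). The T101A level was not particular to that line, since SUFE2 averaged 1309 in chl1-5 and 1352 in chl1-12, with 973 in T101D. NANA, a chloroplast aspartic protease, was at 1459, 1739 and 1260.3 in T101A and 809, 787 and 799.7 in chl1-9, a difference of 0.87 ± 0.14 (adjusted p = 0.0130; 0.0449 without that array) in which chl1-9 was below all other arrays. AT2G19970, a PR-1-like secreted protein outside the fixed PR-1-like list, differed by 0.97, with means of 986 ± 51.6 in T101A and 503 ± 108 in chl1-9. AT3G13950 and AT1G55265, the second with a DUF538 domain, differed by 0.96 and 0.86. AT5G56370, an F-box protein, and AT1G25240, with an ENTH-type domain of vesicle adaptors, were both dim and differed by 1.49 and 1.27. Of the 15 rises named by rank, 10 kept the call without chl1-9 replicate 3. Those that lost it were AT1G26390, AT5G56370, AT1G62760, AT2G03370 and SWEET2. In 11 of the 15 the chl1-9 arrays were the lowest of all 18, and in 0 were the T101A arrays the highest.

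**Figure D3:**
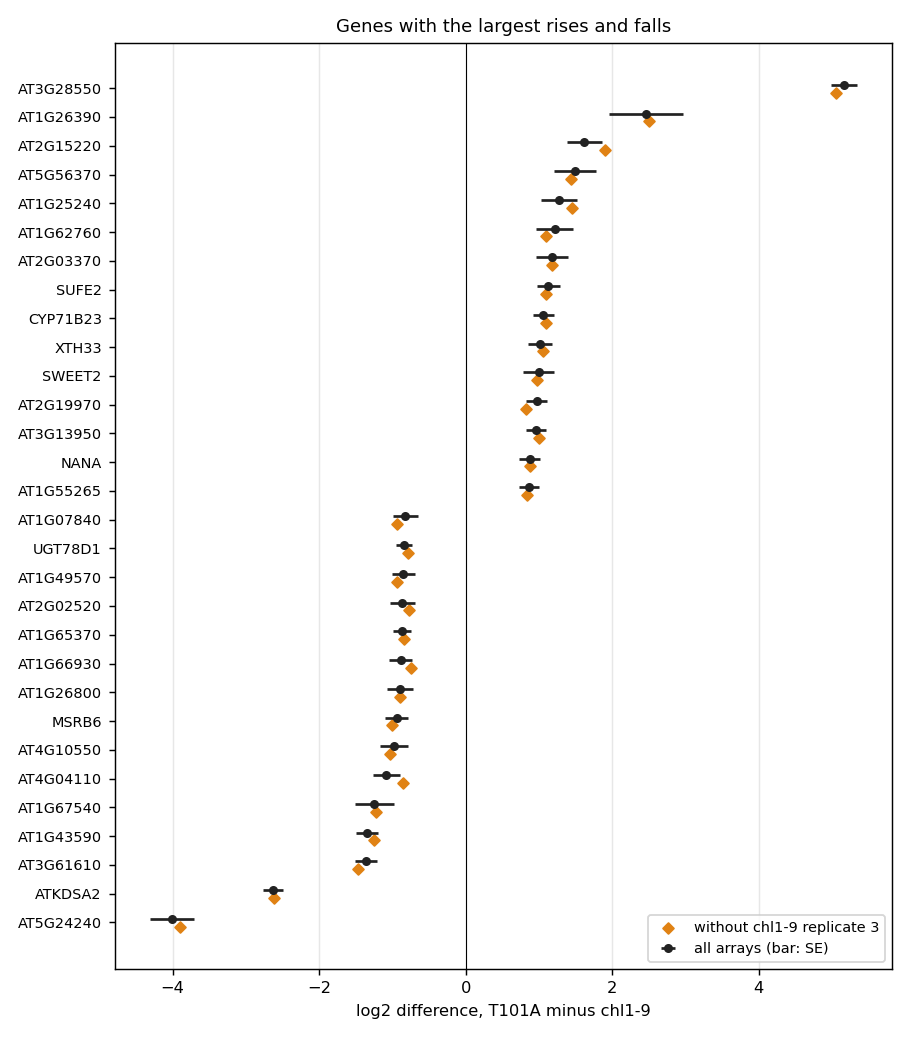
Log2 difference, T101A minus chl1-9, of the 15 top-ranked rises and the 15 top-ranked falls among named genes; black points are all arrays with the SE as a bar, and orange diamonds leave out chl1-9 replicate 3. The widest rise is AT3G28550 and the widest fall AT5G24240, with and without that array.

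AT1G26390 was the second largest named rise and lies in a run of neighbouring genes on chromosome 1 for berberine-bridge-like enzymes, flavin oxidoreductases of which several act in defence metabolism. Its intensity was 218, 382 and 96.3 in T101A and 18.7, 26.8 and 26.1 in chl1-9, and 1943 ± 444 in col. T101A replicate 3 was lowest in its line. The log2 difference was 2.46 ± 0.51, with an adjusted p of 0.0451 that became 0.105 without chl1-9 replicate 3. Against col the difference was -3.14 for T101A (adjusted p = 0.00402) and -5.60 for chl1-9 (adjusted p = 2.69e-05). The T101A mean of 232 was near those of chl1-5 (138) and chl1-12 (172), while T101D averaged 1052.

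Neighbours of AT1G26390 did not pass the threshold. AT1G26380, an enzyme of indole cyanogenic defence metabolism, had 91.0, 215 and 78.0 in T101A and 14.2, 27.0 and 26.9 in chl1-9 (log2 difference 1.79, adjusted p = 0.0661). AT1G26410 had 38.0, 71.4 and 15.5 in T101A and 4.50, 0.977 and 7.71 in chl1-9 (1.39, adjusted p = 0.0749). In both, T101A was above chl1-9 on every array and col was above both. AT1G26420 overlapped between the lines and differed by 0.73 (adjusted p = 0.324), and AT1G26400 was under 10 on all 6 arrays. Over the 20 measured members of the family, 2 rose in T101A and 0 fell, against 0.431% and 0.180% of all probe sets. The median difference was 0.19, and 0.24 without chl1-9 replicate 3. The other call was AT4G20860, at 2218, 2371 and 1934 in T101A and 1234, 1605 and 1383 in chl1-9 (difference 0.63 ± 0.13, adjusted p = 0.0480; 0.121 without that array).

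**Figure D4:**
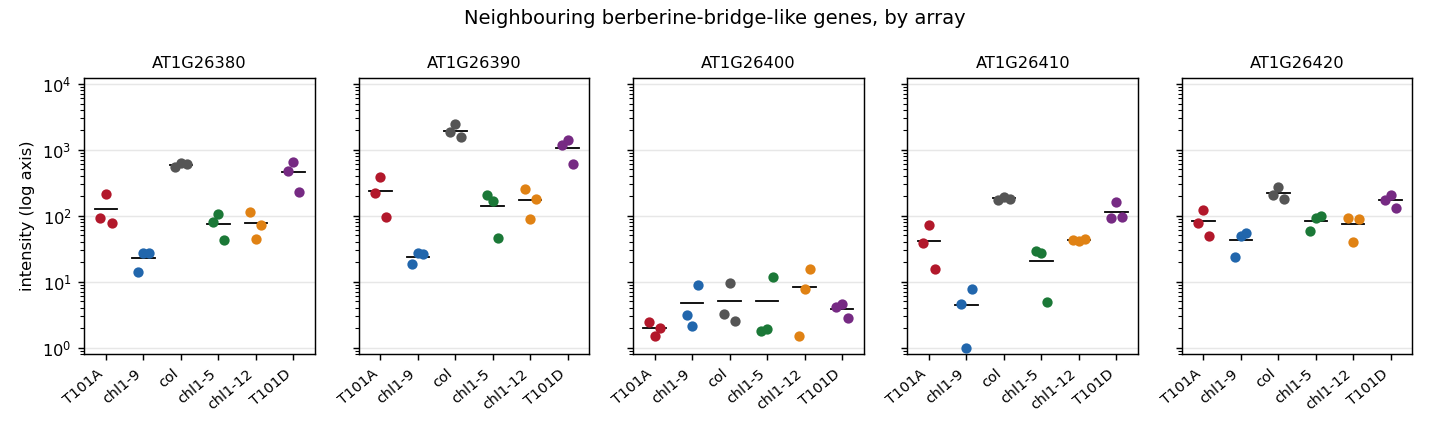
Intensity (log axis) of 5 neighbouring berberine-bridge-like genes on each of the 18 arrays; points are arrays, short lines are means of 3, and an intensity under 1 is drawn at 1. In AT1G26380, AT1G26390 and AT1G26410 the T101A arrays lie above the chl1-9 arrays and below the col arrays.

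Among the 16 measured SWEET genes, which move sugars across membranes down their gradient, 2 rose in T101A and 0 fell, against 0.431% and 0.180% of all probe sets, with a median of 0.08 (0.14 without chl1-9 replicate 3). Both calls were lost without chl1-9 replicate 3. SWEET2, a vacuolar sugar transporter of the root, was at 702, 609.8 and 411 in T101A and 237, 324 and 267 in chl1-9. SWEET2 was 1.99-fold higher in T101A on the log2(intensity + 16) scale (adjusted p = 0.0480; 0.125 without chl1-9 replicate 3). The col mean of 882 was above both lines, and chl1-9 differed from it by -1.62 (adjusted p = 4.73e-04). The T101A mean of 574 lay between those of chl1-5 (602) and chl1-12 (521), and T101D averaged 682. SWEET14, which exports sugar from cells, was at 305, 271 and 311 in T101A and 194, 211 and 169 in chl1-9, with a difference of 0.59 ± 0.11 (adjusted p = 0.0290; 0.0912 without that array). Here the order was another one: col was lowest, at 126 ± 1.03, and T101A and chl1-9 exceeded it by 1.13 and 0.54, both past the threshold. SWEET11 and SWEET8 had negative differences of -0.54 and -0.58, with adjusted p of 0.186 and 0.231.

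Of the 24 measured cytochrome P450 genes, oxygenases of secondary metabolism, 2 rose and 0 fell, against 0.431% and 0.180% of all probe sets. The median was 0.08 (0.20 without chl1-9 replicate 3). Both calls were of the CYP71B subfamily, to which most of the 24 belong, since only genes with a CYP symbol or synonym entered the list. CYP71B23 was at 1009.8, 1033 and 949 in T101A and 359, 585 and 497 in chl1-9, a log2 difference of 1.06 ± 0.14 (adjusted p = 0.00485). CYP71B28 was at 201, 187 and 125 in T101A and 84.4, 86.9 and 93.8 in chl1-9, with 0.82 ± 0.15 (adjusted p = 0.0319; 0.0607 without chl1-9 replicate 3). In both genes the chl1-9 arrays were the lowest of all 18. A further CYP71B gene, CYP71B29, differed by 0.50 with an adjusted p of 0.0707.

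UGT78D1 attaches rhamnose to flavonols and was the only call among 51 measured UGT glycosyltransferases, against 0.180% of all probe sets lower in T101A. Their median was -0.09 (-0.08 without chl1-9 replicate 3). It was at 447, 448 and 413 in T101A and 721, 806 and 861 in chl1-9, above all 15 other arrays, with a log2 difference of -0.84 ± 0.10 (adjusted p = 0.00204). Against the col mean of 525, the difference was -0.26 for T101A (adjusted p = 0.234) and 0.58 for chl1-9 (adjusted p = 0.00519). UGT84A1, which glucosylates hydroxycinnamates, had a negative difference of -0.97 that missed the threshold (adjusted p = 0.0877). MSRB6, a methionine sulfoxide reductase that repairs oxidised proteins, was at 891, 862 and 950.3 in T101A and 1635, 2029 and 1597 in chl1-9, with -0.94 ± 0.16 (adjusted p = 0.0165).

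AT1G65370 was at 234, 187 and 242 in T101A and 415, 396 and 434 in chl1-9, above all other arrays, with a log2 difference of -0.87 ± 0.12 (adjusted p = 0.00602). AT4G10550, a subtilisin-like protease, was at 177, 196 and 97.8 in T101A and 344, 307 and 292 in chl1-9. Its difference of -0.98 had an adjusted p of 0.0367, and 0.0701 without chl1-9 replicate 3. The other falls were AT1G49570, a class III peroxidase (-0.85), AT1G26800, a RING-type ubiquitin ligase (-0.90), AT1G66930, a protein kinase (-0.89), and AT1G07840 (-0.83). The dim ones were AT4G04110, of the TIR-type resistance proteins (-1.08), AT1G67540 (-1.25) and AT2G02520 (-0.86), together with an unnamed probe set at 2.25, 4.02 and 2.52 in T101A and 55.3, 24.8 and 27.3 in chl1-9. Their chl1-9 means were 35.8 or less. AT4G04110 was the only one of the 15 named falls in which the T101A arrays lay beyond all others, below them, while the chl1-9 arrays did so in 6. Of the 15 falls, 8 kept the call without chl1-9 replicate 3: AT5G24240, ATKDSA2, AT3G61610, AT1G43590, MSRB6, AT1G65370, AT1G49570 and UGT78D1.

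The other 40 called genes fall outside the naming rule, and those given here were chosen after their values were seen. Their families were read off the calls, and uncalled members of those families were not counted. Without chl1-9 replicate 3, 14 of the 40 kept the call, as did 32 of all 73 called probe sets with a single gene. AT4G16260, a beta-1,3-glucanase of glycosyl hydrolase family GH17, was at 3275, 3018 and 3056 in T101A and 1790.3, 1669 and 1700.5 in chl1-9. Its log2 difference was 0.85 ± 0.11 (adjusted p = 0.00370), and col, at 4716 ± 545, was above both. The means of the other genotypes were 2284 in chl1-5, 2422 in chl1-12 and 4226 in T101D. Another gene of that family, AT1G66250, went the other way, at 287, 289.6 and 284 in T101A and 439, 492 and 481 in chl1-9 (-0.68 ± 0.10, adjusted p = 0.00602). Here the T101A arrays were the lowest of all 18, and the chl1-9 mean of 471 was close to the col mean of 503. The lipid-transfer-like genes AT2G37870, AT3G22570, AT3G53980 and AT5G13900 were higher in T101A by 0.83, 0.68, 0.66 and 0.48. In all 4 the chl1-9 arrays were below every other array, as in 68 of the 98 probe sets called higher in T101A. AT2G37870 and AT5G13900 lost the call without chl1-9 replicate 3 (adjusted p = 0.0525 and 0.0684). The separate list of lipid-transfer-like genes of the EARLI1 cluster had 3 measured members, all with negative differences, a median of -0.22 (-0.17 without that array) and 0 calls. The DUF538 genes AT4G02370 and AT5G19590 were also higher by 0.72 and 0.53, like AT1G55265. AT1G17860, a Kunitz-type protease inhibitor, was higher by 0.53, and AT5G47550, a cystatin, by 0.58 (adjusted p = 0.0787 without that array). GH9B8, an endoglucanase-like hydrolase, CSLA03, a mannan synthase-like protein, and TBL38, of the trichome birefringence-like family, were higher by 0.54, 0.49 and 0.61. All 3 lost the call without chl1-9 replicate 3, with adjusted p of 0.145, 0.121 and 0.0774. FDH, the mitochondrial formate dehydrogenase, was at 745, 741 and 782 in T101A and 474, 451 and 604 in chl1-9. Its T101A arrays were the highest of all 18, with a difference of 0.57 ± 0.12 (adjusted p = 0.0490).

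Wall-loosening and root hair genes had positive median differences, with 1 call among them. Of 10 measured XTH genes, 8 had a positive difference and 1, XTH33, was called, and the median was 0.40 (0.39 without chl1-9 replicate 3). Over all probe sets the median was -0.02, 45.6% had a positive difference, 0.431% were called higher and 0.180% lower. XTH21, XTH16 and XTH19 had differences of 0.61, 0.52 and 0.38, with adjusted p of 0.154, 0.239 and 0.108. Their groups did not overlap, which held for 16.7% of all probe sets. Of 19 expansins, which loosen walls during cell growth, 0 were called and the median was 0.15 (0.16 without chl1-9 replicate 3). The expansin-like gene EXLA3 had the widest difference, at 66.8, 152 and 69.0 in T101A and 26.2, 5.96 and 38.2 in chl1-9 (1.52, adjusted p = 0.123), followed by EXLA1 (0.60, adjusted p = 0.0939).

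Of 9 root hair genes, 8 had a positive difference, against 45.6% of all probe sets, and 0 were called. Their median was 0.34, and 0.37 without chl1-9 replicate 3. EXPA7 and EXPA18 are in both this list and the expansins, so these lists are not separate. AT4G08410, an extensin read by a probe set of the x_at type that may cross-hybridise, was at 222, 222 and 282 in T101A and 134, 154 and 108 in chl1-9 (0.81, adjusted p = 0.0880). AT3G49960, a class III peroxidase, was at 1690.0, 1373 and 1686 in T101A and 1103, 1141 and 1097 in chl1-9 (0.49, adjusted p = 0.140). In both genes the groups were apart, as in 16.7% of all probe sets. The summed level of the 9 genes was 6080 to 7484 in col, below both lines and below the other genotypes as well. It was 9899 to 11943 in chl1-5, 9233 to 10815 in chl1-12 and 9325 to 10569 in T101D.

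The measured genes of nitrate transport and nitrate response gave 0 calls between the lines, against 0.431% higher and 0.180% lower of all probe sets. At such shares, lists this short would mostly hold none, so the 0 says little about these genes. An unadjusted limma p under 0.05 held for 4 of 12 transporter genes, 3 of 11 nitrate-induced genes and 3 of 17 CC-type glutaredoxins. Over all 22746 probe sets it held for 3249. Of 12 measured genes of nitrate transporters and related NPF proteins, the median difference was 0.16 (0.06 without chl1-9 replicate 3). The gene closest to the threshold was AT2G26690, known as NRT1.4 and NPF6.2, a nitrate transporter of leaf petioles. It was at 281, 209 and 211 in T101A and 143, 129.6 and 153 in chl1-9, without overlap (0.65 ± 0.15, adjusted p = 0.0745), and its col mean was 328. Of 32 nitrate-induced genes listed, only 11 were measured with a single annotated gene, and the nitrate and nitrite reductase genes were not among them. Most of that list was thus not read. The median of the 11 was 0.06 (0.13 without chl1-9 replicate 3). AT4G32950, a protein phosphatase 2C, was at 243, 326 and 177 in T101A and 450.4, 469 and 388 in chl1-9, all T101A arrays being lower (-0.81 ± 0.22, adjusted p = 0.111). Both lines were well above col, which had 37.0, 36.2 and 28.2. The 17 CC-type glutaredoxins, small redox proteins of which several respond to nitrogen supply, had a median of -0.28 (-0.33 without chl1-9 replicate 3). Over all probe sets 45.6% had a positive difference, and among the 17 there were 14 negative differences and 0 calls. The largest was that of AT4G15680, at 15.6, 30.1 and 55.4 in T101A and 71.3, 125 and 79.9 in chl1-9 (-1.17, adjusted p = 0.137).

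**Figure D5:**
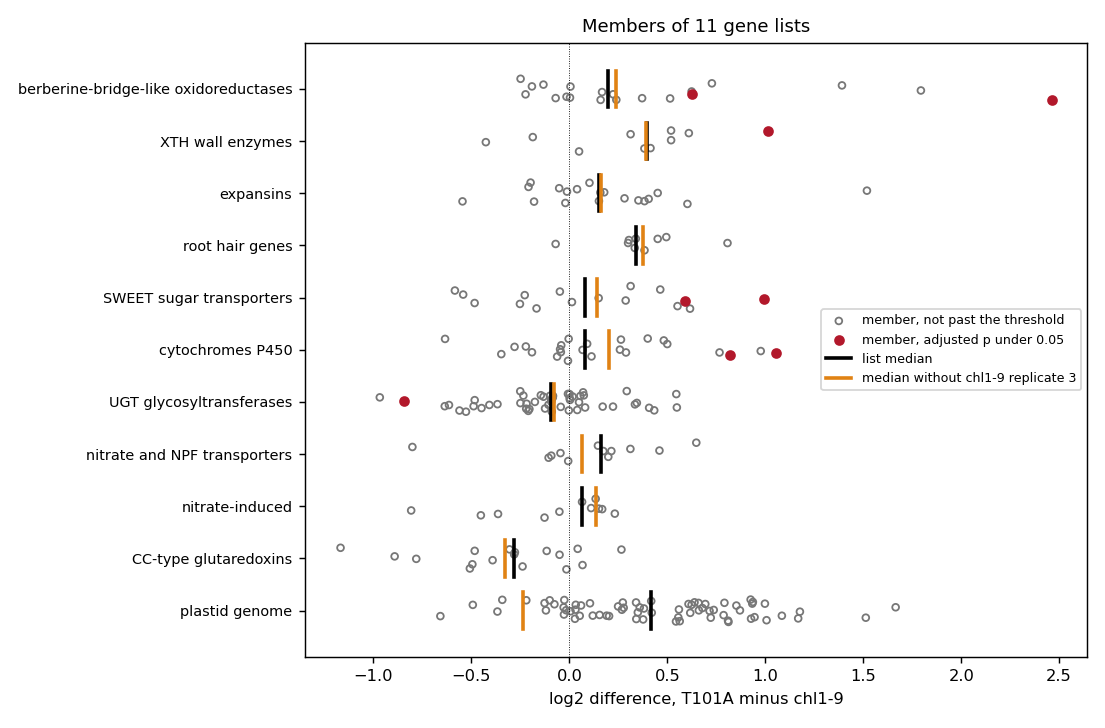
Log2 difference, T101A minus chl1-9, of each measured member of 11 gene lists; filled points passed the threshold, black lines are list medians and orange lines are medians without chl1-9 replicate 3. Among these 11 lists, the 2 medians lie on opposite sides of 0 for the plastid genome, at 0.42 and -0.24.

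The median of the genes encoded in the plastid genome turned with 1 array. The 69 genes had a median difference of 0.42 with all arrays and -0.24 without chl1-9 replicate 3, and 0 were called either way. Their summed level in col was 61402 to 68729, next to which only chl1-9 replicate 3, at 19404, was far lower. Genes of the photosystems and antennae that are encoded in the nucleus did not follow that array: the 7 measured members summed to 1238 to 1635 in T101A and 1316 to 1566 in chl1-9, with a median of -0.08 with and without it.

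Other lists with 5 or more measured members had 0 calls, against 0.611% of all probe sets, a share at which lists this short would mostly hold none. Their median differences were 0.15 for 17 probe sets of peptide hormones, 0.26 for 8 calmodulin-like genes, 0.04 for 11 PR-1-like proteins and 0.04 for 7 WRKY factors, and 0.16, 0.15, 0.02 and 0.08 without chl1-9 replicate 3. They were -0.14 for 14 glutathione transferases, -0.05 for 11 low oxygen genes, -0.04 for 6 cytokinin response regulators and -0.12 for 6 iron deficiency genes, and -0.14, -0.08, -0.04 and -0.13 without that array. The 14 auxin genes had a median of -0.07, which turned to 0.05 without that array. The 10 lists with 1 to 4 measured members had 0 calls and medians of -0.26 to 0.32. Of these genes, IAA31, an auxin response repressor, had the widest positive difference at 0.95 (adjusted p = 0.118) and the low oxygen gene AT1G33055 the widest negative one at -1.15 (adjusted p = 0.312). Of the 46 lists, 15 came out empty, so nothing can be said of those lists here. For nitrogen assimilation, phosphate starvation, endodermis, xylem and phloem, no listed locus had a probe set with a single annotated gene. Patterns for descriptions were matched to gene symbols and synonyms only. The list of class III peroxidases, defined by description alone, was therefore empty, although AT1G49570 and AT3G49960 were measured. The extensin list likewise held 1 gene and left out AT4G08410 and AT3G28550.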

How the data were processed

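The deposited data are intensity values, 22810 probe sets by 18 arrays, in a single table; per the labels' protocols, TRIzol RNA was labelled with an Affymetrix 3' IVT Express kit. How probes were summarised is not given in the sources used here. In each array the mean is 500 once 2% of values are trimmed at either end, a scaling by the authors that hides a change in total messenger RNA. Depth has no equivalent, so the number of arrays limits precision; 16.5% to 18.5% of probe sets of the 6 compared arrays lay under 16, and the median SD was 0.16 in T101A and 0.19 in chl1-9 on the log2 scale.

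Groups and replicate numbers came from sample titles. Without the 64 AFFX controls, 22746 probe sets were tested as log2(value + 16) with limma 3.58.1 in R 4.3.3, with 1 coefficient per genotype over all 18 arrays and moderated variances; every adjusted p is from limma, by Benjamini-Hochberg. The contrasts with col come from the same fit. The script was tested on simulated data. Tables and plots used Python 3.11.15, numpy 2.4.6, pandas 2.3.3 and matplotlib 3.10.9.

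The platform annotation gave 1 gene for 13513 tested probe sets, several for 503 and none for 8730; 13436 were matched to RefSeq (TAIR10.1) for symbols and chromosomes. No coordinates or sequences are given. Named genes are the 15 largest rises and 15 largest falls among called probe sets with 1 gene and no overlap, called members of 46 gene lists, and the 2 largest unnamed changes each way; 7 false matches to list name patterns were removed. The comparison, lists and rule were chosen with earlier results of these data known. Alternatives were the arrays in the fit, the replicate block, pseudocounts, filters, normalizations, variance models and leaving out each array; the placement among genotypes without chl1-9 replicate 3 was added after seeing the data. Same-numbered arrays of the lines were compared through their deviations from the group means across probe sets. Correlations were 0.06, 0.08 and 0.06, against -0.05 to -0.01 for arrays of unlike number. The main fit did not use the replicate numbers as a block, and whether they pair the samples was not settled.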

Additional observations from a re-analysis of the deposited data

How the results depend on the processing

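The fit over all 18 arrays called 139 probe sets between T101A and chl1-9, and the count changed by more than 1.5 times under most alternatives. It was 12 with only the 6 arrays, 51 with array weights, 256 with an intensity trend, 218 for probe sets above the lowest quartile, 362 above the median and 220 with a pseudocount of 64. Leaving out 1 array gave 37 to 138. It was 109 with a pseudocount of 1, 130 after quantile normalization and 127 with arrays centred on their median. The share of calls that were higher in T101A was 70.5%, against 50% with only the 6 arrays, 59.6% without T101A replicate 1 and 40% (2 higher, 3 lower) with the replicate block on only the 6 arrays. The causes were not tested, except that fits on fewer arrays or fewer probe sets differ by construction.

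A fit with the replicate number as a block called 280 probe sets over all 18 arrays and 5 over the 6 arrays. Every array correlated best with its own number in the other line, but all same-number correlations were under 0.1. The numbers are thus a hint of pairing, which these values do not settle.

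Since the groups of all 139 do not overlap, leaving out an array cannot turn their direction, so direction is no sign of stability here. Of the 37 named probe sets, AT3G28550, AT5G24240, ATKDSA2 and the largest unnamed change each way kept the call in every alternative that tested them. Over all named probe sets, 193 of 608 values lost the call. List medians moved by more than the spread between arrays in 39 of 522 cases.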
